A study of Mus musculus with 18 samples.

Results

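The genes described here are 10 genes of mitochondrial fatty acid oxidation and of its control by PPAR nuclear receptors, chosen by symbol from the 19938 genes that the arrays named. They are the carnitine palmitoyltransferases Cpt1a and Cpt2, the acyl-CoA dehydrogenases Acadm, Acadl and Acadvl, the trifunctional protein subunits Hadha and Hadhb, the nuclear receptors Ppara and Pparg, and the coactivator Ppargc1a. All 10 were on the array, and no filter on low values was applied. Hadhb and Ppargc1a each had a second array feature, and the feature with the higher mean over the 18 arrays was used.

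The arrays measured total RNA of alveolar type II cells, the surfactant-producing epithelium of the alveolus, isolated from mice aged 7 to 8 weeks. There were 3 arrays in each of 6 groups. Cebpa-deleted cells came from mice labelled CCSP/rtTA/CEBPa(flx/flx), in which the gene of the transcription factor C/EBPα was deleted in Clara cells from an early fetal stage and in type II cells from around birth, and were sampled at 0, 2 and 24 h. Control cells came from littermates with the floxed alleles, CEBP/a(flx/flx), that lacked either the rtTA or the Cre transgene, sampled at the same times. The times are hours of hyperoxia in the series design, whereas every sample description states air. CCSP is the Clara cell secretory protein, a product of airway cells, and the deletion was thus not confined to type II cells. The labels do not say whether samples came from separate animals, so the p-values rest on the spread among these arrays, which may be technical. On the log2 scale the surfactant protein gene Sftpc lay between 13.7 and 14.6 over the 18 arrays, and the adipocyte gene Adipoq lay between 4.06 and 6.31. Markers of other lung cells were also bright on every array, with Scgb1a1 of airway secretory cells between 13.6 and 14.1 and Lyz2, a macrophage gene that type II cells of mice also express, between 12.5 and 14.2.

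Mitochondrial β-oxidation shortens fatty acids in repeated cycles that release acetyl-CoA and reduced cofactors. Carnitine palmitoyltransferases bring long-chain fatty acids into the matrix, acyl-CoA dehydrogenases open each cycle on chains of different length, and the trifunctional protein carries out the later steps on long chains. PPARα, with the coactivator PGC-1α that Ppargc1a encodes, drives transcription of these enzymes in liver, heart and muscle, while PPARγ is best known for adipocyte differentiation and also acts in alveolar macrophages. Type II cells also make fatty acids for surfactant, which is mostly phospholipid.

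Promoter windows from RefSeq on build GRCm38.p6, each covering 250 bases before to 50 after a start site, were found for all 10 genes, 12 windows in all because Pparg had 3. Of these, 4 are printed because Cpt1a and Acadl had the lowest values of the set relative to controls at 24 h, Hadhb shares its upstream sequence with Hadha, and Pparg had the only difference above 0 at 24 h, which did not pass the test. Each is written 5′ to 3′ on the strand of its gene, with letters that match a searched motif in capitals. The Cpt1a window is chr19:3323051-3323350 on the plus strand, the Acadl window chr1:66863260-66863559 on the minus strand, the Hadhb window chr5:30155003-30155302 on the plus strand, and the Pparg window chr6:115421816-115422115 on the plus strand.
Cpt1a: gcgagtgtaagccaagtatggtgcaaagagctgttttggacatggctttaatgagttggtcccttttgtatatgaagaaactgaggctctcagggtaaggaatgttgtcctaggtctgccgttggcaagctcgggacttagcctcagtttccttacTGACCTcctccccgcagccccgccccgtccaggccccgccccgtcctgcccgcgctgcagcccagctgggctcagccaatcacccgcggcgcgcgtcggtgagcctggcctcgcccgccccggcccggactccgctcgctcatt
Acadl: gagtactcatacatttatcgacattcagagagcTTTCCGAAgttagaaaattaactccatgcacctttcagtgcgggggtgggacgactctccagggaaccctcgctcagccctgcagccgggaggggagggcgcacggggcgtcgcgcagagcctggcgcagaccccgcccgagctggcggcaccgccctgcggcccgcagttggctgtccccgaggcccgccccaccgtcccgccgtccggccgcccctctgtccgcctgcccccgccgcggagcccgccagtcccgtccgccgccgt
Hadhb: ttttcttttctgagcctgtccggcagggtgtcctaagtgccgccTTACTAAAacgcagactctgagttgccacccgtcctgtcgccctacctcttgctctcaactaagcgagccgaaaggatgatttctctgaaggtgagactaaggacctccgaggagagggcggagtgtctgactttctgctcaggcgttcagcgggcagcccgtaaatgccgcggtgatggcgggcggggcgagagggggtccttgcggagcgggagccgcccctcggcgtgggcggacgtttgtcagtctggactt
Pparg: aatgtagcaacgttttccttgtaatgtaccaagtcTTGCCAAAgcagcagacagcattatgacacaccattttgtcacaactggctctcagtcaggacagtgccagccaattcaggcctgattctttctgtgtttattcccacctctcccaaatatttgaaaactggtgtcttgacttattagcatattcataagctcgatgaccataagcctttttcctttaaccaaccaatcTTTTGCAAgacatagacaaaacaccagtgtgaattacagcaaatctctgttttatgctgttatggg
Hadha and Hadhb lie head to head, with start sites 273 bases apart, and their windows overlap by 228 bases. Motifs were searched on both strands. The C/EBP-like pattern TTNNGNAA was present in 6 of the 12 windows, against 40.7% of all 32851 windows in the table. The Hadha and Hadhb windows hold the same match, read on opposite strands of their shared bases, so it is counted in both. Its narrower form TTGCNNAA, every match of which is also a match of TTNNGNAA read on the other strand, was present in 1 of 12, against 10.8% of all windows. That window is the Pparg one printed above, which held 2 matches. The nuclear receptor hexamer AGGTCA was present in 5 of 12 windows, against 16.3% of all windows. In the printed Cpt1a window it stands on the opposite strand as TGACCT. The Pparg windows chr6:115360894-115361193 and chr6:115362099-115362398 are not printed. Each held 1 AGGTCA and 0 C/EBP-like matches, so both are among those 5, whereas the printed Pparg window held 0 AGGTCA. The direct repeat AGGNCANAGGNCA was in 0 of 12 windows and in 0.4% of all. A match is a run of letters and was not tested as a binding site.

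Arrays differed in the spread of their values along with the groups. The interquartile range of all genes averaged 2.97 log2 units in Cebpa-deleted and 3.01 in control arrays at 0 h, 2.35 in Cebpa-deleted and 2.25 in control arrays at 2 h, and 1.95 in Cebpa-deleted and 2.47 in control arrays at 24 h. In the Cebpa-deleted 24 h group, replicates 1 and 2 were the narrowest of all, at 1.89 and 1.82, and replicate 4 stood apart at 2.13, outside the control range of 2.44 to 2.52. Results at 24 h are therefore also given without replicate 4 and without replicates 1 and 2. Cebpa itself was lower in Cebpa-deleted than in control cells by 0.43 log2 units at 0 h, which did not pass (limma adjusted p = 0.429), and the log2 difference was -1.10 at 2 h (adjusted p = 0.00461) and -1.83 at 24 h (adjusted p = 8.19e-06).

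At 24 h, the Cebpa-deleted cells had lower levels of 6 of the 7 enzyme genes and of Ppara than controls. Acadl differed most, Cpt1a was at 65.1% of the control level, and Hadha, Acadvl, Hadhb, Ppara and Acadm lay between 72.3% and 82.6%. Cpt2, Pparg and Ppargc1a did not pass the test. At 0 and 2 h none of the 10 genes did. Of the 10 genes, 7 were called lower and 0 higher at 24 h, where 26.4% of all genes were called lower and 24.3% higher at an adjusted p below 0.05. That share depended on level, and 62.4% of the genes with a mean of at least 8 were called lower, against 10.2% of those below. Of the 8 genes of the set at or above that level 6 were called lower, which is close to the share of all genes there, and 1 of the 2 below it was. The median log2 difference over the 10 genes was -0.39, against 0.05 over all genes. The Cebpa-deleted and control arrays did not overlap for 8 of the 10, against 62.1% of all genes.

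**Figure D1:**
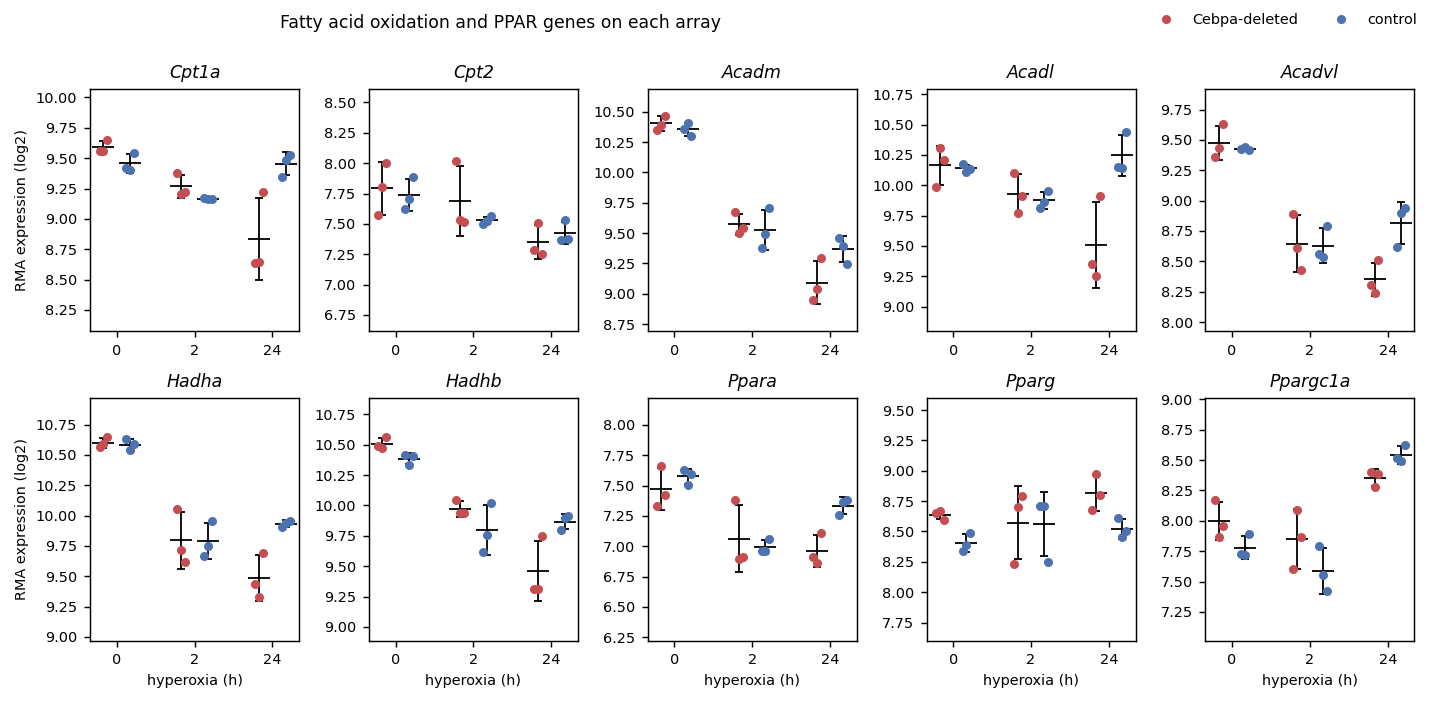
RMA expression (log2, y axis, each panel spanning the same number of log2 units) of the 10 genes on each array against hours of hyperoxia (x axis). Points are arrays, Cebpa-deleted left of control at each time, and bars give the mean and SD of 3 arrays. At 24 h the Cebpa-deleted arrays lie below the controls for Cpt1a, Acadl, Acadvl, Hadha, Hadhb, Ppara and Ppargc1a and above them for Pparg.

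In the carnitine shuttle the first enzyme was lower and the last was not called. Cpt1a, which loads long-chain acyl groups onto carnitine at the outer membrane and sets the rate of entry, measured 8.64, 8.64 and 9.22 in Cebpa-deleted arrays at 24 h, against 9.35, 9.49 and 9.53 in controls. All 3 Cebpa-deleted arrays lay below all controls, and replicate 4 lay closest to them. The log2 difference was -0.62 ± 0.12 (SE, n = 3 each, limma adjusted p = 0.00101). Cpt2, the inner membrane enzyme that returns the acyl group to CoA, measured 7.29, 7.51 and 7.25 in Cebpa-deleted arrays, against 7.37, 7.53 and 7.38 in controls. The groups overlapped, and the difference of -0.08 had a 95% interval of -0.35 to 0.20 (limma adjusted p = 0.639). Cpt1a and Cpt2 were not tested against each other. Their mean levels were 9.3 and 7.6, where all genes of like level had median differences of -0.37 and -0.07.

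Among the acyl-CoA dehydrogenases the long-chain enzyme Acadl differed most. It measured 9.36, 9.26 and 9.91 in Cebpa-deleted arrays at 24 h, against 10.15, 10.14 and 10.44 in controls, and the groups did not overlap. The log2 difference was -0.74 ± 0.14 (SE, limma adjusted p = 0.00089). The very-long-chain enzyme Acadvl measured 8.30, 8.24 and 8.51 in Cebpa-deleted arrays, against 8.62, 8.89 and 8.94 in controls. These groups did not overlap either, and the difference was -0.47 ± 0.12 (adjusted p = 0.00576). The medium-chain enzyme Acadm measured 8.95, 9.04 and 9.29 in Cebpa-deleted arrays, against 9.46, 9.40 and 9.25 in controls. Here the highest Cebpa-deleted array lay above the lowest control, and the difference of -0.28 ± 0.10 passed at an adjusted p of 0.0341.

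The subunits of the trifunctional protein, whose genes share the upstream sequence printed above, had similar values. Hadha, the α subunit with the hydratase and long-chain hydroxyacyl-CoA dehydrogenase activities, measured 9.44, 9.33 and 9.69 in Cebpa-deleted arrays at 24 h, against 9.90, 9.94 and 9.96 in controls. Hadhb, the β subunit with the thiolase activity, measured 9.32, 9.32 and 9.75 in Cebpa-deleted arrays, against 9.79, 9.90 and 9.91 in controls. Neither gene's groups overlapped, and the log2 differences were -0.45 ± 0.11 for Hadha (SE, adjusted p = 0.00479) and -0.41 ± 0.11 for Hadhb (adjusted p = 0.00816). The second Hadhb feature gave the same size, -0.41.

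The regulators did not move together. Ppara, the receptor that activates fatty acid oxidation genes, measured 6.91, 6.86 and 7.11 in Cebpa-deleted arrays at 24 h, against 7.26, 7.37 and 7.38 in controls. The groups did not overlap, and the log2 difference was -0.37 ± 0.12 (SE, limma adjusted p = 0.0165). Pparg measured 8.68, 8.97 and 8.80 in Cebpa-deleted arrays, against 8.61, 8.45 and 8.50 in controls. All Cebpa-deleted arrays lay above all controls, but the difference of 0.30 ± 0.14 missed the threshold (adjusted p = 0.0776). Ppargc1a measured 8.41, 8.28 and 8.38 in Cebpa-deleted arrays, against 8.52, 8.49 and 8.63 in controls, without overlap and with a difference of -0.19 (95% interval -0.44 to 0.07, adjusted p = 0.194).

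Because these are bulk samples, fewer cells of a type and less RNA per cell cannot be told apart, and markers of several cell types differed between the same groups at 24 h. Of 12 type II cell markers, 11 were lower in Cebpa-deleted cells and 0 higher, and their mean level lay between 11.33 and 11.70 in Cebpa-deleted arrays, against 12.15 to 12.24 in controls. All 12 endothelial markers were higher, with means of 9.10 to 9.21 in Cebpa-deleted arrays and 8.10 to 8.71 in controls. Of 10 lymphocyte markers measured 7 were higher (7.39 to 7.66 in Cebpa-deleted, 6.46 to 7.03 in control arrays), of 10 fibroblast and smooth muscle markers 6 were higher (7.51 to 7.72 in Cebpa-deleted, 6.96 to 7.42 in control arrays), and of 7 type I cell markers 5 were lower (8.52 to 8.89 in Cebpa-deleted, 9.36 to 9.98 in control arrays). Of 6 airway markers 3 were higher (10.6 to 10.8 in Cebpa-deleted, 10.4 to 10.5 in control arrays). Macrophage markers, 3 higher and 3 lower of 12, spanned 7.51 to 7.77 in Cebpa-deleted and 7.45 to 7.77 in control arrays, and adipocyte markers, 1 higher of 4, spanned 5.45 to 5.74 in Cebpa-deleted and 5.50 to 5.64 in control arrays. Of the 12 endothelial markers, 8 at 0 h and 12 at 2 h were called higher in the Cebpa-deleted group. Of all 19938 genes, 135 at 0 h and 239 at 2 h were called higher. At these times no gene of the set was called. The calls of all genes at 24 h also varied with level. Of all genes with a mean between 11 and 12, 59.6% were called lower. Of those between 6 and 7, 40.1% were called higher, against 15.7% between 7 and 8 and 3.9% between 8 and 9. Marker counts after normalization are not given, so the share of the array spread in them is open. The part of the cell type markers in the 24 h differences was not tested.

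The 24 h differences also have to be read against genes of the same level, since bright genes as a whole were lower and dim genes higher in the narrow Cebpa-deleted arrays. Genes with a mean between 9 and 10 had a median log2 difference of -0.37 and quartiles of -0.56 and -0.21. Hadhb and Acadm lay inside those quartiles, and 44.3% and 64.7% of the genes at that level were lower than they were. Acadl and Cpt1a lay below the lower quartile, with 10.8% and 18.5% of the genes at their level lower still. Ppara also lay below the lower quartile of genes between 7 and 8, which was -0.30, with 18.2% of them lower. Pparg stood at the other end, higher than 95.2% of genes between 8 and 9, whose median difference was -0.32.

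**Figure D2:**
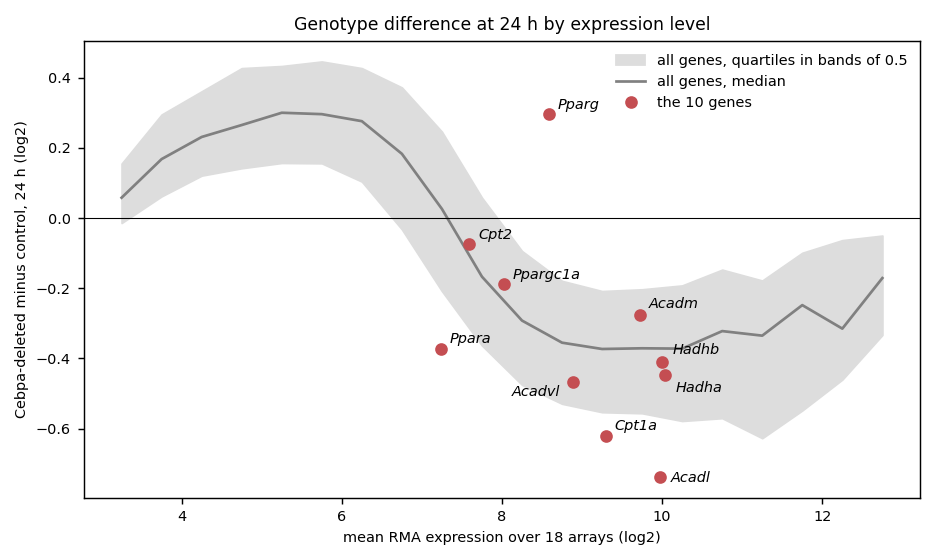
Log2 difference at 24 h, Cebpa-deleted minus control (y axis), against the mean RMA expression over 18 arrays (log2, x axis). The grey line and band give the median and quartiles of all genes in bands of 0.5, and red points are the 10 genes. Acadl, Cpt1a and Ppara lie below the quartile band and Pparg above it, whereas Acadvl, Hadha, Hadhb, Acadm, Cpt2 and Ppargc1a lie within it.

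Settings that even out the array spread changed which genes passed. After quantile normalization of the 18 arrays, 3 of the 10 genes were lower at 24 h (17.1% of all genes), namely Ppara at -0.50, Acadl at -0.39 and Cpt1a at -0.29, and Pparg was higher at 0.64 (16.5% of all genes). After cyclic loess normalization, Acadl at -0.37 and Ppara at -0.40 were lower (13.5% of all genes) and Pparg was higher at 0.60 (11.1%), while Cpt1a at -0.26 had an adjusted p of 0.0558. Under both, Acadvl, Hadha and Hadhb lay between -0.15 and -0.04 and were not called, and Acadm changed sign to 0.07 and 0.09. With each array's interquartile range as a covariate, none of the 10 genes was called, and neither was Cebpa at -1.30 (limma adjusted p = 0.138). At 24 h that range ran from 1.82 to 2.13 in Cebpa-deleted and from 2.44 to 2.52 in control arrays. Range and genotype cannot be told apart there, so a call lost under this setting does not show which of them it follows. Without replicates 1 and 2, which leaves 1 Cebpa-deleted array at 24 h whose spread is taken from the other groups, none was called either, with Acadl at -0.33 (95% interval -0.66 to -0.00) and Cpt1a at -0.23 (-0.48 to 0.02), whereas Cebpa stayed called at -1.89. Without replicate 4 the differences were larger, at -0.94 for Acadl and -0.81 for Cpt1a.

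**Figure D3:**
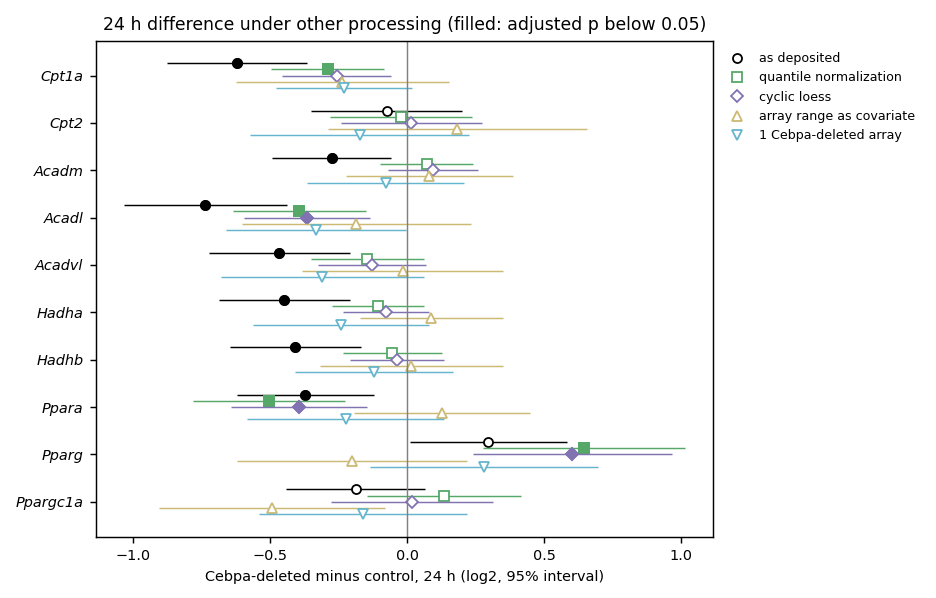
Log2 difference at 24 h, Cebpa-deleted minus control (x axis), with 95% intervals for each gene (y axis) under 5 settings. Filled symbols have a limma adjusted p below 0.05, and the last setting leaves out the 2 narrowest Cebpa-deleted arrays. Acadl is filled in 3 settings, Ppara in 3 and Pparg in 2, and no gene is filled in the last 2 settings.

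At 0 and 2 h no gene of the set passed the genotype test. At 0 h, 0 of the 10 were called, against 0.858% of all genes, and log2 differences ran from -0.10 for Ppara to 0.23 for Pparg. The arrays of 3 genes did not overlap at 0 h, namely Cpt1a, Hadhb and Pparg, each higher in Cebpa-deleted cells, against 17.3% of all genes. Pparg measured 8.65, 8.67 and 8.59 in Cebpa-deleted arrays at 0 h, against 8.34, 8.39 and 8.49 in controls (adjusted p = 0.685). At 2 h, 0 of the 10 were called, against 1.4% of all genes, and Cpt1a was the only gene whose arrays did not overlap, against 12.5% of all genes. The log2 differences at 2 h ran from 0.01 for Hadha to 0.26 for Ppargc1a, which had an unadjusted p of 0.042 and an adjusted p of 0.421. The second Ppargc1a feature gave 0.58 at 2 h and -0.03 at 0 h, where the feature used gave 0.22.

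**Figure D4:**
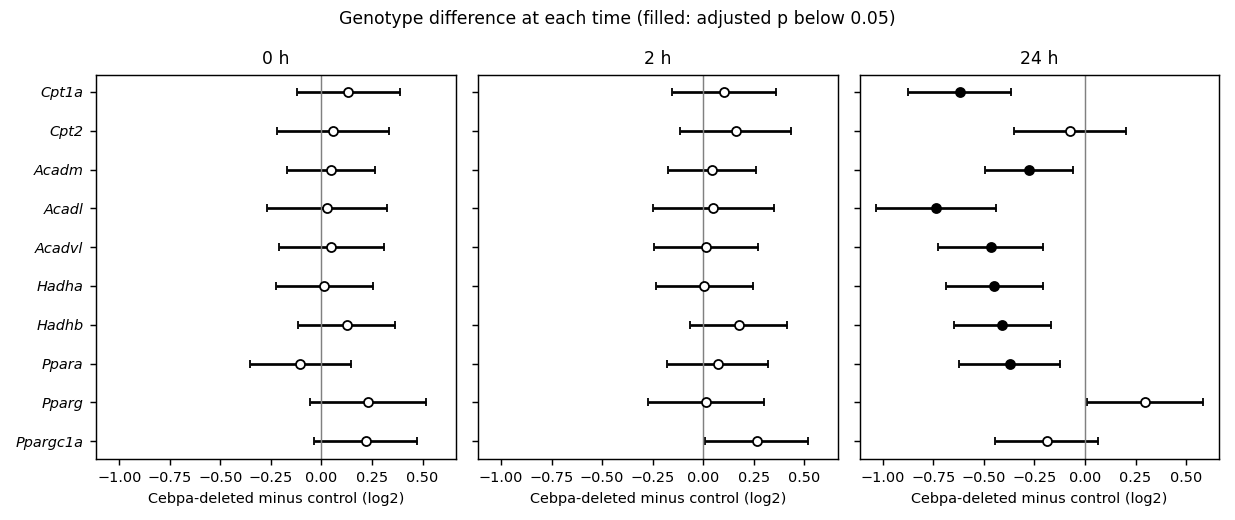
Log2 difference, Cebpa-deleted minus control (x axis), with 95% intervals for the 10 genes (y axis) at 0, 2 and 24 h. Filled points have an adjusted p below 0.05. All intervals at 0 h include 0, and at 24 h 7 genes are filled, from -0.74 for Acadl to -0.28 for Acadm.

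Over time, levels of most enzymes were lower at 2 h than at 0 h in both genotypes. Acadm averaged 10.40 at 0 h, 9.57 at 2 h and 9.09 at 24 h in Cebpa-deleted cells, and 10.35, 9.53 and 9.37 in controls at the same times. From 0 to 2 h its log2 change was -0.83 in either genotype, and Hadha followed with -0.80 in Cebpa-deleted and -0.79 in control cells. Acadvl changed by -0.83 in Cebpa-deleted and -0.80 in control cells, Hadhb by -0.54 in Cebpa-deleted and -0.59 in control cells, Ppara by -0.41 in Cebpa-deleted and -0.58 in control cells, and Cpt1a by -0.32 in Cebpa-deleted and -0.29 in control cells. These 6 genes were called lower in each genotype, against 36.2% of all genes in Cebpa-deleted and 39.4% in control cells. The 0 h arrays had the widest spread, and time and array spread cannot be told apart here. After quantile normalization Cpt1a changed by 0.14 in Cebpa-deleted and 0.20 in control cells between 0 and 2 h, not called in either.

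Between 2 and 24 h several enzymes fell in Cebpa-deleted cells in the values as deposited, and none was called lower in controls. In controls 1 gene of the set was called lower after quantile normalization, and 1 with the array range as covariate. In Cebpa-deleted cells 5 genes were called lower, against 19.6% of all genes, with log2 changes of -0.51 for Hadhb, -0.48 for Acadm, -0.44 for Cpt1a, -0.42 for Acadl and -0.31 for Hadha. None of the 10 genes was called lower there after quantile or cyclic loess normalization, with the array range as covariate or without replicates 1 and 2. In control cells 0 were called lower, against 4.46% of all genes. Acadl at 0.37 (limma adjusted p = 0.0947), Ppara at 0.34 (0.0676) and Cpt1a at 0.29 (0.127) lay above 0 there without passing. At 24 h relative to 0 h, 8 genes were called lower in Cebpa-deleted cells, against 41.5% of all genes, and 5 in control cells, against 34.6%. After quantile normalization 1 gene was called lower and 3 higher in control cells, and after cyclic loess 1 lower and 4 higher. In Cebpa-deleted cells 5 were lower and 2 higher under each of these settings. The shares of all genes called over time after normalization are not given, so these counts have no background beside them. The values that follow are as deposited. The lowest values in Cebpa-deleted cells were those of Acadm at -1.31, Acadvl at -1.13, Hadha at -1.11 and Hadhb at -1.05, and the lowest in controls were those of Acadm at -0.98 and Hadha at -0.65. In control cells the 24 h levels of Cpt1a and Acadl, as deposited, were close to those at 0 h. The log2 differences were -0.00 and 0.11, with 95% intervals of -0.26 to 0.25 and -0.19 to 0.40. After quantile and cyclic loess normalization Cpt1a was instead called higher at 24 h than at 0 h in control cells, at 0.40 and 0.43.

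The difference between the genotypes in this change was tested as an interaction. From 2 to 24 h it was called lower for 5 of the 10 genes, against 16.5% of all genes. The log2 differences of the changes, Cebpa-deleted minus control, were -0.79 ± 0.20 for Acadl (SE, limma adjusted p = 0.0118), -0.72 ± 0.17 for Cpt1a (adjusted p = 0.00914), -0.58 ± 0.16 for Hadhb (0.0167), -0.45 ± 0.16 for Hadha (0.0416) and -0.48 ± 0.17 for Acadvl (0.0443). From 0 to 24 h it was called for Acadl at -0.76, Cpt1a at -0.75 and Hadhb at -0.53, against 8.88% of all genes called lower. From 0 to 2 h it was called for 0 of the 10 and for 0 of all genes by limma, of which 1279 had an unadjusted p below 0.05 and none was among the 10. With 1 array left out in turn, the call from 2 to 24 h passed in all 18 fits for Acadl and Cpt1a, in 16 for Hadhb, in 9 for Hadha (-0.56 to -0.32) and in 6 for Acadvl (-0.59 to -0.36). None of the 10 interactions from 2 or 0 to 24 h was called after quantile or cyclic loess normalization.

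Ppargc1a was higher at 24 h than at 2 h in both genotypes. It measured 8.41, 8.28 and 8.38 in Cebpa-deleted arrays at 24 h, against 7.60, 8.09 and 7.87 at 2 h, and 8.52, 8.49 and 8.63 in control arrays at 24 h, against 7.79, 7.55 and 7.42 at 2 h. In both genotypes every 24 h array lay above every 2 h array. The log2 change was 0.50 ± 0.12 in Cebpa-deleted cells (SE, adjusted p = 0.00571), against 11.8% of all genes called higher, and 0.96 ± 0.12 in controls (adjusted p = 5.17e-05), against 7.97% of all genes called higher. In controls it was the only gene of the set called from 2 to 24 h, and its change there passed under every setting tried, between 0.87 and 1.09. In Cebpa-deleted cells its change was not called with only the groups compared or with the array range as covariate. The second feature gave 0.45 in Cebpa-deleted and 1.15 in control cells. The difference between the genotypes in this change was -0.45 (adjusted p = 0.0515). Relative to 0 h, Ppargc1a was higher at 24 h by 0.36 in Cebpa-deleted and 0.76 in control cells, both called, against 36.0% of all genes called higher in Cebpa-deleted and 25.3% in control cells. With the array range as covariate the change from 0 to 24 h in Cebpa-deleted cells was -0.24 and was not called.

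As deposited, Pparg had no called change over time in either genotype. Its log2 changes lay between -0.06 and 0.24 in Cebpa-deleted and between -0.04 and 0.15 in control cells. After quantile or cyclic loess normalization it was called higher from 0 to 2 h in control cells and from 0 to 24 h in Cebpa-deleted cells. It was also called higher from 2 to 24 h in Cebpa-deleted cells after quantile normalization, and from 0 to 24 h in controls after cyclic loess. At 2 h it was uneven within both groups, with 8.23, 8.70 and 8.79 in Cebpa-deleted arrays and 8.71, 8.71 and 8.25 in control arrays.

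Other genes of the pathway were described from lists, and at 24 h 26.4% of all genes were called lower and 24.3% higher, with 62.4% lower among genes with a mean of at least 8. Of 19 other mitochondrial fatty acid oxidation genes, 16 were lower in Cebpa-deleted cells at 24 h and 0 higher, with a median log2 difference of -0.57 against 0.05 over all genes. The largest differences were those of Acot2 at -1.20, a matrix acyl-CoA thioesterase, Eci2 at -1.01, an isomerase for unsaturated chains, Mlycd at -0.98, malonyl-CoA decarboxylase, and Slc25a20 at -0.90, the carnitine-acylcarnitine carrier. Of the 15 genes at or above a mean of 8, 14 were lower. Of the 19, 10 were lower after quantile and 8 after cyclic loess normalization, with Acot2, Eci2, Mlycd and Slc25a20 in both counts, and 0 with the array range as covariate or without replicates 1 and 2. The peroxisomal list had 10 of 17 genes lower and 0 higher, with a median of -0.37, led by Abcd3 at -1.02, a transporter of the peroxisomal membrane, Pex11a at -0.96, a peroxisome division factor, Scp2 at -0.90, which holds the thiolase for branched chains, and Ehhadh at -0.64, the bifunctional enzyme. Of the 10 peroxisomal genes at or above a mean of 8, 8 were lower. After quantile or cyclic loess normalization 6 of the 17 were lower and 1 higher, with medians of -0.17 and -0.13, and 0 were called with the array range as covariate or without replicates 1 and 2. Of the 3 ketone body genes measured, Oxct1 at -0.77 and Acat1 at -0.30 were lower and Bdh1 was higher at 0.33, and after quantile or cyclic loess normalization Oxct1 alone was called, with list medians of 0.04 and 0.06.

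Genes on both sides of the control of carnitine entry were lower. Acetyl-CoA carboxylase makes malonyl-CoA, which inhibits CPT1, and AMP-activated kinase inhibits the carboxylase. Of 10 genes on this list 9 were lower and 0 higher in Cebpa-deleted cells at 24 h, among them the carboxylase Acaca at -1.28, the fatty acid synthase Fasn at -0.83, and the kinase subunits Prkaa2 at -0.58 and Prkag1 at -0.54. Fasn uses malonyl-CoA to build fatty acids and does not oxidize them. The median was -0.41. All 8 genes at or above a mean of 8 were lower. After quantile or cyclic loess normalization 4 of the 10 were lower, namely Acaca, Acacb, Fasn and Prkaa2, and 0 were with the array range as covariate or without replicates 1 and 2.

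PPAR target genes were divided. Of 23 measured, 8 were lower and 5 higher in Cebpa-deleted cells at 24 h, with a median of 0.13. Those 8 were among the 10 targets at or above a mean of 8, and 0 of the 13 below it were lower. Of all genes with a mean between 6 and 7, 40.1% were called higher, against 3.9% between 8 and 9. The levels of the 5 higher targets are not given, and the part of level in the division was not tested. After quantile normalization 7 were lower and 3 higher, with a median of -0.05, after cyclic loess normalization 7 were lower and 2 higher, with a median of -0.11, and with the array range as covariate 0 were called. Lower were Vnn1 at -1.87, a pantetheinase, Fabp5 at -1.69, a fatty acid binding protein, Plin2 at -1.27, a lipid droplet coat protein, and Acot1 at -1.16, a cytosolic thioesterase. Higher were Pdk4 at 0.86, a kinase that restrains pyruvate dehydrogenase, Pltp at 0.69, a phospholipid transfer protein, Fgf21 at 0.44, a hormone made chiefly in liver, and Plin4 at 0.42, a droplet protein. Vnn1 was already lower at 2 h, at -1.15, when the scavenger receptor Olr1 was higher at 0.85, and these were the only list members called then besides the peroxisomal hydroxylase Phyh at 0.67 and the coactivator Ncoa3 at 0.42. At 0 h no member of the 6 lists was called. Plin2 and Vnn1, with the fatty acid transporter Cd36, were still called at 24 h without replicates 1 and 2.

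Partners and coregulators of the receptors had 7 of 20 genes lower and 3 higher, with a median of -0.17, and 6 of the 10 at or above a mean of 8 were lower. After quantile or cyclic loess normalization the balance was 2 lower and 4 higher, with medians of 0.02 and -0.00, and 0 were called with the array range as covariate or without replicates 1 and 2. Lower were the deacetylase Sirt1 at -0.78, the mitochondrial transcription factor Tfam at -0.67, the acetyltransferase Ep300 at -0.50 and the receptor partner Rxrb at -0.37. Higher were the oestrogen-related receptor Esrrg at 0.43, Rxrg at 0.26 and the PGC-1 family member Ppargc1b at 0.21. From 2 to 24 h in control cells, where Ppargc1a was higher, 4 of the 20 were higher and 1 lower, against 7.97% of all genes called higher and 4.46% lower, with the acetyltransferases Crebbp at 0.88 and Ep300 at 0.84 and the coactivator Ncoa3 at 0.44 the largest.

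**Figure D5:**
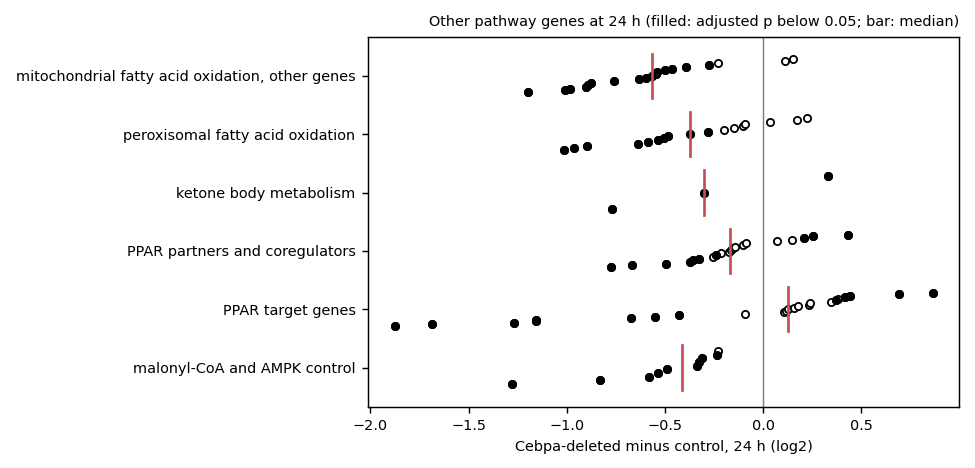
Log2 difference at 24 h, Cebpa-deleted minus control (x axis), of each gene of 6 pathway lists (y axis). Filled points have an adjusted p below 0.05, and red bars mark list medians. Medians run from -0.57 for the other mitochondrial genes to 0.13 for PPAR target genes, which spread from -1.87 to 0.86.

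Across the 18 arrays, after each time's mean was subtracted, the levels of the enzymes varied together, except those of Cpt2. Over the 21 pairs of the 7 enzymes Pearson's r had a median of 0.83 and ran from 0.21 for Acadl with Cpt2 to 0.93 for Acadl with Cpt1a. Each time's mean was taken over both genotypes, so the genotype differences given above enter every such value. The arrays also share their differences in spread, which enter these values too. By the same measure the genes most like Cpt1a were Rbm3, Serpinb6a and Slc25a20 (r of 0.96, 0.96 and 0.95), and those most like Acadl were Mob2, Emd and Tmem167b (0.97, 0.97 and 0.96). Those most like Acadvl were Etfb, Decr1 and Aldh9a1 (0.97, 0.96 and 0.96), and those most like Hadha were Mrpl2, Ints4 and Mrpl23 (0.99, 0.98 and 0.98).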

How the data were processed

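Total RNA of isolated type II cells was hybridized to 18 arrays. The authors deposited log2 expression values, and the submitters' processing notes name RMA; the version, and which arrays were normalized together, are not given in the sources used here. Of 35557 features, 21789 had 1 gene symbol and were used, giving 19938 genes; where a gene had several features the one with the highest mean was taken. Groups came from genotype and time in the titles.

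A linear model with 6 group means was fitted to all genes with limma 3.58.1 (lmFit, eBayes) in R 4.3.3, and two-sided p-values were adjusted by Benjamini and Hochberg's method across the 19938 genes, with calls at an adjusted p below 0.05. Errors printed with ± are standard errors of that model, and intervals are at 95%. With 3 arrays a group, their number limits the precision. Genotype comparisons at the 3 times use different arrays, whereas comparisons between times share arrays, so their values are only set side by side. Replicate numbers did not pair the arrays (r of deviations between -0.24 and 0.06).

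Besides the 10 genes and Cebpa, the text names from each pathway list up to 4 called genes of each direction with the largest genotype difference at 24 h, up to 3 in other comparisons, and for each member the 3 genes of highest correlation, printed for those with the largest differences; genes that stayed called under other settings were named after their values were seen. The genes and lists were chosen with earlier results of these data known. Alternatives were each array left out, quantile normalization, median centring, only the groups compared, a replicate block, the mean of all features, the upper 60 percent of genes, array range as covariate, and trend with robust settings; cyclic loess normalization and the joint removal of Cebpa-deleted replicates 1 and 2 at 24 h, the arrays of narrowest range, were added after the data were seen. On simulated data with 19938 genes, the 24 h comparison recovered 68% of 100 genes changed 1.5-fold and 95% of 100 changed 2-fold, with 9 false calls. The deposited 24 h data differ from this setting, with 26.4% of genes called lower, 24.3% higher and unequal array ranges. False calls that arise from such ranges cannot be read from the simulation. Counts at 24 h were also split at a mean level of 8, a value chosen after the data were seen. Promoter sequences are RefSeq's.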

Additional observations from a re-analysis of the deposited data

Results flagged for a closer look

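As deposited, the change over time differed between Cebpa-deleted and control cells, by the interaction term of the limma fit, for these genes. From 0 to 24 h the difference of the log2 changes was -0.76 for Acadl, -0.75 for Cpt1a, -0.53 for Hadhb and -1.41 for Cebpa. From 2 to 24 h it was -0.79 for Acadl, -0.72 for Cpt1a, -0.58 for Hadhb, -0.48 for Acadvl, -0.45 for Hadha and -0.73 for Cebpa. Both sets of values share the 24 h arrays.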

How the results depend on the processing

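Counts of the 10 genes called at 0 and 2 h by genotype, and for the interaction from 0 to 2 h, were 0 under every setting tried. The count at 24 h by genotype, 7 lower, was also 7 lower under median centring, the replicate block, the mean of all features, the upper 60 percent of genes and trend with robust settings. With only the groups compared it was 6 lower and 1 higher, since Acadm was lost (adjusted p = 0.0595) and Pparg was called higher (0.0348). It was 4 after quantile normalization (3 lower), 3 after cyclic loess normalization (2 lower), 0 with the array range as covariate and 0 without the 2 narrowest arrays. With 1 array left out in turn the count lay between 4 and 8, and Cpt1a, Acadl, Acadvl and Hadha passed in all 18 such fits. Acadm was lost without either of control replicates 1 and 2 or Cebpa-deleted replicates 1 and 2, Hadhb without Cebpa-deleted replicate 2, and Ppara without control replicate 3 or Cebpa-deleted replicates 1 or 2, with differences over all 18 fits of -0.37 to -0.20 for Acadm, -0.55 to -0.34 for Hadhb and -0.45 to -0.32 for Ppara. From 2 to 24 h in Cebpa-deleted cells Hadha passed in 4 of the 18 fits (-0.41 to -0.18), and from 0 to 24 h the interaction passed in 7 for Hadhb, 13 for Acadl and 16 for Cpt1a. The other counts with 1 array left out ran from 5 to 6 (2 minus 0 h), 8 to 9 (24 minus 0 h) and 3 to 8 (24 minus 2 h) in Cebpa-deleted cells, from 5 to 7, 5 to 7 and 1 to 3 in control cells, and from 0 to 6 and 2 to 7 for the interactions from 0 to 24 h and 2 to 24 h.

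For the counts in this paragraph, the shares of all genes called under the same settings are not given. In Cebpa-deleted cells, 3 genes were called from 0 to 2 h after quantile normalization, all lower. From 2 to 24 h, against 5 lower and 1 higher, 2 were called higher and 0 lower after quantile normalization, 1 higher and 0 lower after cyclic loess, 2 lower with only the groups compared, and 0 without the 2 narrowest arrays. In control cells, 3 were called from 2 to 24 h without the 2 narrowest arrays, 2 after quantile normalization, and 4 with only the groups compared. With the array range as covariate the counts were 0 in every Cebpa-deleted comparison over time, 0, 2 and 2 in control cells, and 0 for both interactions with 24 h. The interaction from 0 to 24 h was called for 0 genes after quantile or cyclic loess normalization or without the 2 narrowest arrays, for 6 with only the groups compared and for 5 among the upper 60 percent of genes. That from 2 to 24 h was called for 0, 0, 0 and 3 under the first 4 of these settings and for 3 with the replicate block.

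A change of sign was counted where a difference passed under either setting. With the array range as covariate the sign turned for Acadm (0.08), Hadha (0.09), Hadhb (0.02) and Ppara (0.13) by genotype at 24 h; for Cpt1a (0.13) and Ppara (0.18) from 0 to 2 h, Cpt2 (0.06), Acadl (0.42), Ppara (0.47) and Ppargc1a (-0.24) from 0 to 24 h and Acadl (0.01) and Hadha (0.11) from 2 to 24 h in Cebpa-deleted cells; for Cpt1a (0.26), Hadhb (0.03), Ppara (0.14) and Cebpa (0.31) from 0 to 2 h in control cells; and for the interaction from 2 to 24 h of Acadvl (0.06) and Hadha (0.19). After quantile and cyclic loess normalization it turned for Acadm at 24 h by genotype (0.07 and 0.09), for Cpt1a from 0 to 2 h in Cebpa-deleted (0.14 and 0.16) and control cells (0.20 and 0.22) and from 0 to 24 h in control cells (0.40 and 0.43, both called higher), for Acadl from 0 to 24 h in Cebpa-deleted cells (0.12 and 0.17) and for Cebpa from 0 to 2 h in control cells (0.09 and 0.06). After cyclic loess alone it turned for Cpt1a from 0 to 24 h (0.03) and Hadha from 2 to 24 h (0.00) in Cebpa-deleted cells. With the covariate, array range cannot be told apart from genotype at 24 h, nor from time between the 0 h and the later arrays. The cause was not tested.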
